A study of Homo sapiens with 288 samples.

Results

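The genes described are those of bone morphogenetic protein (BMP) signalling and its immediate targets, chosen by name: the ligands BMP2, BMP4 and BMP7, the receptors BMPR1A and BMPR2, the target genes ID1, ID2 and ID3, and the inhibitory SMADs SMAD6 and SMAD7. Of these 10 symbols, 9 were matched among the 17492 genes of the count tables. ID2 was not analysed here, so that the ID targets below are ID1 and ID3. The genes were followed through 96 single cells of the human embryonic stem cell line H1, of which 45 had been differentiated to endothelial cells (EC) and 51 to trophoblast-like cells (TB). For EC, the labels give 2 days with BMP4 at 5 ng/ml and Activin A at 25 ng/ml, followed by 3 days with VEGF and WNT. For TB they give E7 medium, which is E8 lacking FGF2, with BMP4 at 50 ng/ml and SB431542, an inhibitor of Activin and TGF-beta receptors. Both cell types had therefore met BMP4 protein, at different doses and together with different factors, and dose, other factors, time and cell type cannot be told apart in these data. The labels do not say whether BMP4 stayed in the EC medium after the switch, nor how long TB were kept in theirs.

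Every cell was sequenced in 3 experiments from the same amplified cDNA, brought to a fixed input before library preparation. In EQ, equal volumes of the libraries were pooled. In EQ-Vary the pooled volumes were scaled so that depth varied between cells, and EQ-75% repeated the library preparation with less sequencing. Each experiment filled 1 lane. The limits of the study, on depth and on the share of counts in the 50 most abundant genes, were applied. They left 38 EC and 48 TB in EQ, 38 and 46 in EQ-Vary, and 39 and 50 in EQ-75%. Median totals were 2025136 counts for EC and 1968563 for TB in EQ, within a range of 365536 to 3966798. Levels are given as counts per 1000000 counts (CPM) as mean ± SD between cells, and a gene was called detected in a cell at a rounded count of 1 or more. Since no separate cultures are named, the cells of a type in an experiment are 1 sample, and no p-value is given. In place of a test, a gene was counted as higher in a cell type when its mean CPM was at least 2 times that of the other type, among genes whose 2 means averaged 1 CPM or more. All confidence intervals are at 95%. Those of ratios of summed counts cover counting error only. Those of detection rates treat the cells as independent draws, and neither kind covers differences between cultures.

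BMPs are secreted ligands of the TGF-beta superfamily. A ligand brings together type I receptors such as BMPR1A and the type II receptor BMPR2, and the active type I receptor phosphorylates SMAD1, SMAD5 and SMAD9, which enter the nucleus with SMAD4. The ID genes are among the most direct targets. Their proteins bind E proteins, a class of basic helix-loop-helix factors, and keep them from DNA. SMAD6 and SMAD7 are induced by the pathway too and act back on it as inhibitors. BMP signals take part in the formation of mesoderm and of blood vessels, and BMP4 is the usual agent for driving human pluripotent cells to trophoblast-like fates in culture.

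The labels were checked against marker genes. All 15 endothelial markers were higher in EC, led by KDR (1600 ± 710 CPM in EC and 4.27 ± 5.45 in TB), PECAM1 (1317 ± 883 and 15.0 ± 11.2) and CD34 (809 ± 579 and 1.77 ± 3.17). Of 11 trophoblast markers abundant enough to compare, 10 were higher in TB, led by KRT18 (1926 ± 1278 CPM in TB), KRT8 (1259 ± 806) and TFAP2C (388 ± 379). GATA3 missed the limit, at 120 ± 189 CPM in EC and 236 ± 158 in TB. Of the markers usually held to define trophoblast, CDX2 was detected in only 1 TB cell and CGB5 in 2, and TP63 was detected in 5. ELF5 and CGA were low but widely detected in both types. They averaged 3.43 and 2.93 CPM in TB, with counts in 37 and 43 of 48 cells. In EC they averaged 1.68 and 1.44 CPM, with counts in 25 and 29 of 38 cells. CGA did not pass 2-fold in EQ-75%. TB also carried amnion markers, with VTCN1 at 1142 ± 468 CPM, ISL1 at 103 ± 126 and TFAP2B at 99.4 ± 100, and 2 of 5 mesenchymal markers compared were higher in TB, LUM at 3042 ± 2423 CPM and COL3A1 at 735 ± 458. The other 3 were higher in neither in EQ, with PDGFRA at 11.8 ± 61.2 CPM in EC and 7.28 ± 20.4 in TB, PDGFRB at 14.9 ± 63.1 and 14.5 ± 27.1, and TWIST1 at 1.98 ± 4.33 and 1.28 ± 3.99 (past 2-fold in EC in the other experiments), and PRRX1 had no count in TB. The summed mesenchymal level, in TB mostly LUM and COL3A1, per cell ran from 499 to 9336 CPM in TB and from 2.49 to 395 CPM in EC. Summed immediate early genes had medians of 2087 CPM in TB and 99.5 CPM in EC. The part of these differences in the results below was not tested.

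The 9 genes did not move one way. ID3 and SMAD6 were at least 2-fold higher in EC, BMP2 and BMP7 at least 2-fold higher in TB, and BMP4, BMPR1A, BMPR2, ID1 and SMAD7 passed the limit in neither direction. The counts of 2 and 2 out of 9 stand beside a background of 19.2% of 12351 genes higher in EC and 26.2% higher in TB, so that the share of these genes past 2-fold is close to that of all genes. Their median log2 ratio of EC to TB was 0.31 against -0.06 for all genes tested, and the median size of the log2 ratio was 0.87 in both sets. Those 4 genes also passed in the other experiments, EQ-Vary and EQ-75%, where the background was 19.4% and 18.3% higher in EC and 26.3% and 27.1% higher in TB.

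**Figure D1:**
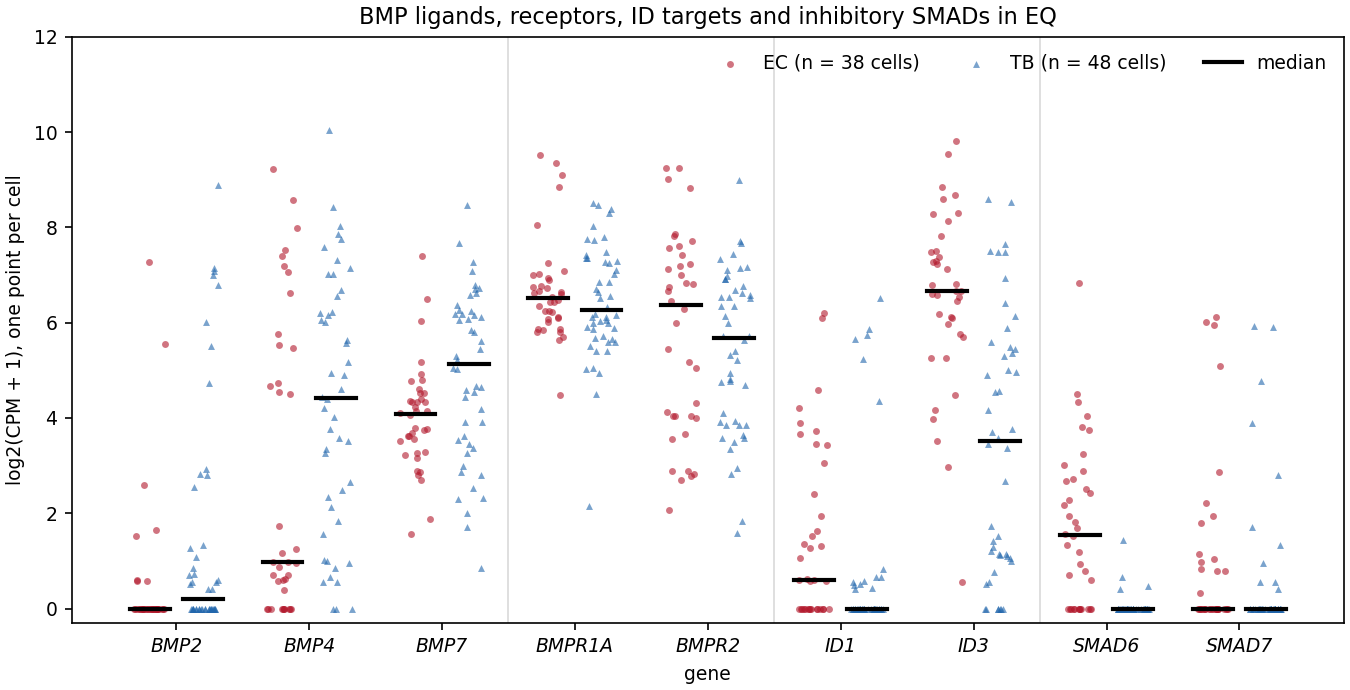
Level of each of the 9 genes in every EQ cell as log2(CPM + 1), with EC as circles (38 cells), TB as triangles (48 cells) and black bars at the medians. The 2 receptors lie above 0 in every cell of both types, ID3 is shifted towards EC, SMAD6 is close to 0 in nearly all TB, and BMP2, BMP4, ID1 and SMAD7 hold many cells at or near 0 beside a few high ones.

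Among the ligands, BMP4 had the highest mean level per length of transcript, 30.001 CPM per kb in EC and 40.5 CPM per kb in TB, followed by BMP7 with 5.53 and 13.4 CPM per kb and BMP2 with 1.56 and 6.77 CPM per kb. BMP4 (ENSG00000125378; GRCh38 chr14:53949736-53958761, minus strand) ranged in EC from 0 to 599 CPM with a median of 0.97, and in TB from 0 to 1049 CPM with a median of 20.4. The ranges of the cell types overlap almost fully, while the typical TB cell held more of the transcript than the typical EC. BMP4 was detected in 28 of 38 EC (73.7%, interval 56.9 to 86.6%) and in 45 of 48 TB (93.8%, 82.8 to 98.7%). It reached 10 CPM in 15 EC and 30 TB. The means were nevertheless alike, 57.9 ± 123 CPM in EC and 78.1 ± 164 in TB, a ratio of 1.35 in favour of TB. The 4 highest EC held 64.1% of the EC total and the 5 highest TB held 55.9% of theirs. Over all genes averaging 1 CPM or more, the median shares were 56.4% and 48.3%. Without the highest cell of each type the ratio was 1.33. Averaged on the log2(CPM + 1) scale, BMP4 was 1.44 lower in EC, past the 2-fold limit. The ratio of the counts summed over cells was 1.18 in favour of TB in EQ (1.14 to 1.23), but 1.07 in favour of EC in EQ-Vary (1.03 to 1.11), where deep cells weigh more. The ratio of mean CPM favoured TB in all 3 experiments without reaching 2.

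BMP7 (ENSG00000101144; chr20:57168753-57266641, minus strand), which can pair with BMP2 or BMP4 in heterodimers, was the only ligand detected in every cell of EQ. Of all genes averaging 1 CPM or more, 30.3% were detected in every EC and 28.5% in every TB. In EC BMP7 ranged from 1.94 to 168 CPM with a median of 15.96, and in TB from 0.80 to 355 CPM with a median of 34.2. The clouds overlap, and the TB cloud extends further in both directions. Means were 22.2 ± 29.3 CPM in EC and 54.0 ± 63.1 in TB, which is 2.43-fold higher in TB, and the TB cell was the higher in 66.8% of all pairs of 1 EC and 1 TB. The ratio stayed above 2 in EQ-Vary (2.17) and EQ-75% (2.28). On the log2(CPM + 1) scale the difference was 0.89 and missed the limit.

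BMP2 (ENSG00000125845; chr20:6767686-6780246, plus strand), closely related to BMP4, was sparse. Its EC values ran from 0 to 154 CPM and its TB values from 0 to 473 CPM, with medians of 0 and 0.17. Most cells of both types were at or near 0, and what BMP2 there was sat in few cells. It was detected in 8 of 38 EC (21.1%, 9.55 to 37.3%) and 24 of 48 TB (50.0%, 35.2 to 64.8%), and it reached 10 CPM in 2 EC and 8 TB. The 4 highest EC held 98.4% of the EC total and the 5 highest TB held 85.6% of theirs, where the median over all genes with a mean of 1 CPM or more was 56.4% in EC and 48.3% in TB. Means of 5.54 ± 25.9 and 24.01 ± 75.8 CPM gave a ratio of 4.33 in favour of TB. EC cell 8 alone, at 154 CPM, carried most of the EC mean, and without the highest cell of each type the ratio rose to 9.51.

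At 10 CPM or more, all 3 ligands were present together in 1 EC and 5 TB, and none of them in 7 EC and 2 TB. Exactly 1 ligand was the most common state in both types, in 18 EC and 22 TB, and 2 ligands were held by 12 EC and 19 TB.

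Both receptors were detected in every EQ cell. So were 30.3% of all genes averaging 1 CPM or more in EC, and 28.5% in TB. BMPR1A (ENSG00000107779; chr10:86756596-86932825, plus strand), the type I receptor also called ALK3, ranged from 21.4 to 730 CPM in EC with a median of 90.2, and from 3.43 to 366 CPM in TB with a median of 75.8. It reached 10 CPM in all 38 EC and in 47 of 48 TB. Means of 144 ± 166 and 116 ± 90.5 CPM differed by a ratio of 1.24, well inside the spread between cells, and EC was the higher in 54.2% of cell pairs. BMPR2 (ENSG00000204217; chr2:202376327-202567751, plus strand), the type II receptor that is mutated in heritable pulmonary arterial hypertension, ranged from 3.17 to 608 CPM in EC with a median of 82.3, and from 2.01 to 506 CPM in TB with a median of 50.1. Means of 128 ± 163 and 74.2 ± 85.01 CPM gave a ratio of 1.73 in favour of EC, below the limit, with EC higher in 57.1% of cell pairs. BMPR2 varied widely between EC, with an SD of 2.10 on the log2(CPM + 1) scale against 1.05 for BMPR1A. Both receptors reached 10 CPM together in 32 of 38 EC and 42 of 48 TB, and no cell lacked both at that level. Per kb of transcript BMPR1A averaged 22.4 and 18.1 CPM and BMPR2 10.6 and 6.15 CPM in EC and TB.

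The targets and the inhibitors parted within each pair, ID3 from ID1 and SMAD6 from SMAD7. ID3 (ENSG00000117318; chr1:23557926-23559501, minus strand) had the highest mean per length of the set, 179 CPM per kb in EC and 49.7 CPM per kb in TB. Its EC values ran from 0.46 to 894 CPM with a median of 100.3, and its TB values from 0 to 385 CPM with a median of 10.5. It was detected in all 38 EC and was uneven in TB, with 36 of 38 EC but only 24 of 48 TB at 10 CPM or more and 7 TB without a count. Means were 170 ± 194 CPM in EC and 47.2 ± 87.4 in TB, 3.59-fold higher in EC, and EC was the higher in 81.4% of cell pairs. The ratio was 3.54 in EQ-Vary and 3.06 in EQ-75%. On the log2(CPM + 1) scale, which weighs the many low TB cells more, the difference was 3.12.

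SMAD6 (ENSG00000137834; chr15:66702236-66782849, plus strand), which acts mainly against BMP receptors, was found mostly in EC. In EC it ranged from 0 to 113 CPM with a median of 1.92 and a mean of 6.89 ± 18.6. In TB 4 of 48 cells held 7 counts between them, with a mean of 0.063 ± 0.268 CPM and a highest value of 1.72. The level in EC was low but spread over cells, since 26 of 38 EC (68.4%, 51.3 to 82.5%) had at least 1 count against 8.33% of TB (2.32 to 19.98%). The ratio of means was 110, and the ratio of summed counts was 100.4 with an interval of 48.4 to 251. TB held only 3 counts in EQ-Vary and 2 in EQ-75%, and the ratios of summed counts there were 239 (81.3 to 1162) and 205 (56.2 to 1701). EC cell 3 stood far above the rest in each experiment, at 113 CPM in EQ where the next cell had 21.8, and leaving out the highest cell of each type left a ratio of 146. In the cells with at least 1000000 counts, thinned to that depth, SMAD6 was detected in 25 of 34 EC and 3 of 44 TB, against 26 and 4 of the same cells before thinning.

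Among the other members of this group, ID1 (ENSG00000125968; chr20:31605283-31606515, plus strand) was low in both types. It ranged from 0 to 73.1 CPM in EC and from 0 to 90.8 CPM in TB, with medians of 0.52 and 0. ID1 was seen in more EC than TB, 23 of 38 (60.5%, 43.4 to 76.0%) against 15 of 48 (31.3%, 18.7 to 46.3%), but the few high TB cells brought the means level at 6.97 ± 16.1 and 6.48 ± 18.7 CPM. The 5 highest TB held 92.3% of the TB total. The ratio of means was 1.07 in favour of EC and that of summed counts 1.32 in favour of TB (1.17 to 1.48), so no direction is given for the amount of ID1. Per kb of transcript ID1 averaged 7.09 CPM in EC and 6.60 in TB, against the 179 and 49.7 CPM per kb of ID3.

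SMAD7 (ENSG00000101665; chr18:48919853-48950965, minus strand), which also inhibits Activin and TGF-beta signals, was concentrated in few cells. It ranged from 0 to 68.5 CPM in EC and from 0 to 60.1 CPM in TB, with a median of 0 in both types. It was detected in 15 of 38 EC and 11 of 48 TB, and 4 cells of each type reached 10 CPM. The 4 highest EC held 91.5% and the 5 highest TB 96.5% of the respective totals. Means of 6.501 ± 18.01 and 3.56 ± 12.5 CPM gave a ratio of 1.83 in favour of EC, below the limit, whereas the ratio of summed counts was 2.62 (2.28 to 3.01) and the ratio without the highest cell of each type was 2.05.

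Taking ID1, ID3, SMAD6 and SMAD7 together, 2 of 38 EC and 21 of 48 TB had none of the 4 at 10 CPM or more. In EC 24 cells had exactly 1, which was ID3 in all 24, and 12 had 2 or more. No TB cell had more than 2. The shares were alike in the other experiments, with none of the 4 in 3 of 38 EC and 20 of 46 TB of EQ-Vary.

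The sequences upstream of the 2 genes higher in EC, with ID1 for comparison as the target that was not, are shown to place the pathway's own DNA elements. They are the 250 bases before the RefSeq start (GRCh38.p14), read 5′ to 3′ on the gene's strand, at chr1:23559502-23559751 (minus) for ID3, chr15:66701986-66702235 (plus) for SMAD6 and chr20:31605039-31605288 (plus) for ID1. Capitals mark matches to CAGAC or its complement GTCTG, to the GC-rich element GGCGCC, and to the palindromic SMAD-binding element GTCTAGAC, on either strand. None of the motifs contains another.
ID3: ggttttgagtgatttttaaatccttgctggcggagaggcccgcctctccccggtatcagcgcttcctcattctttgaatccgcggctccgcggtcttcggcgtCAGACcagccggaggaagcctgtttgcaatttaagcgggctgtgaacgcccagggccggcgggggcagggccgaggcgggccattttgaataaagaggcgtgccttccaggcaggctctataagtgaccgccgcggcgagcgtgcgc
SMAD6: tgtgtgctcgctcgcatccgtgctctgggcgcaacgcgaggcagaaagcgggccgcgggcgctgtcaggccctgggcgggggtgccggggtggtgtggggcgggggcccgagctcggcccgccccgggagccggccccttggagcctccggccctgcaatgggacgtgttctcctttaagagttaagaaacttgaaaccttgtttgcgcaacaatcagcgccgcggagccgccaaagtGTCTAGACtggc
ID1: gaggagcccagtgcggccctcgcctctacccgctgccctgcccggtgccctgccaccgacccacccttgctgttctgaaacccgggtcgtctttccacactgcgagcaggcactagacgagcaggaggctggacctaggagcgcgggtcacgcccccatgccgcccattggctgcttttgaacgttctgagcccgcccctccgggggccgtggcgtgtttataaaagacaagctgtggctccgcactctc
ID3 held 1 CAGAC, 142 bases before the start, an element found in 13345 of the 35116 promoter sequences of the same length and also upstream of SMAD7, BMP4 and BMPR2, which did not pass 2-fold. SMAD6 held the palindrome 4 bases before its start. It occurs in 64 of the 35116 sequences (0.182%), and it was added to the search after the sequence of SMAD6 had been seen. ID1 held none of the 3 in this window, and GGCGCC, present in 16.4% of all, was found among these genes only upstream of BMP4 and BMPR2. Sequences were at hand for 8 of the 10 symbols, and a match describes the letters and not binding.

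**Figure D2:**
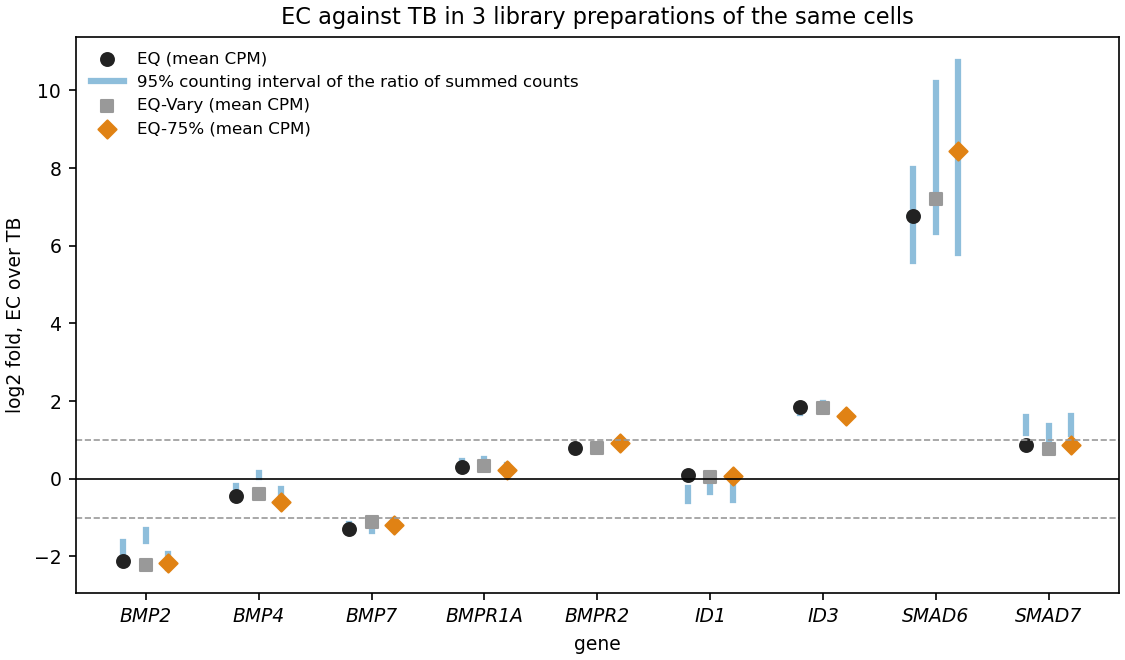
Log2 ratio of EC to TB for the 9 genes, with circles for EQ, squares for EQ-Vary and diamonds for EQ-75%, and with points for the ratio of mean CPM, blue bars for the 95% counting interval of the ratio of summed counts, and dashed lines at 2-fold. The points of ID3 and SMAD6 lie above the upper line and those of BMP2 and BMP7 below the lower one in all 3 experiments. For BMP4, BMPR1A, ID1 and SMAD7 the bars lie apart from the points in all 3 experiments. For BMP2 and ID3 they do so in EQ and EQ-Vary, and for BMP7 in EQ-Vary.

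The wider pathway was described from a list of 49 further genes, of which 48 had a row and 36 were abundant enough to compare. In EQ, 11 were higher in EC, 11 higher in TB and 14 in neither, which is 30.6% each way beside the 19.2% and 26.2% of all genes, with a median log2 ratio of 0.23. Secreted antagonists were divided, with 2 higher in EC and 2 in TB out of 7. Noggin (NOG), which binds BMPs and keeps them from their receptors, averaged 1.60 ± 2.83 CPM in EC and 273 ± 272 in TB, and follistatin (FST), a binder of Activin and some BMPs, 16.05 ± 43.6 and 260 ± 216. Both were detected in all 48 TB and in 30 of 38 EC. SOSTDC1, another secreted antagonist, was higher in EC (12.8 ± 78.5 against 1.26 ± 8.54 CPM). It was detected in 3 EC and 2 TB. With an SD of that size, a single EC must have carried nearly all of the EC mean.

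Among receptors and co-receptors 4 of 7 were higher in EC and 1 in TB. The type I receptor ACVR1 averaged 47.6 ± 108 CPM in EC and 20.2 ± 86.5 in TB, though it did not pass 2-fold in EQ-75%. The co-receptor RGMB averaged 16.6 ± 54.6 and 0.12 ± 0.48 CPM. ACVRL1, the endothelial type I receptor also called ALK1, was detected in 16 EC and 1 TB, at 9.81 ± 36.4 and 0.013 ± 0.087 CPM, and is named here after its values were seen. The type II receptor ACVR2A, shared by Activins and BMPs, was higher in TB, at 428 ± 301 CPM against 159 ± 273.

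Of the SMADs that carry the signal, SMAD1 averaged 62.2 ± 179 CPM in EC and 19.6 ± 45.9 in TB, a ratio of 3.17. SMAD5 averaged 131 ± 147 and 113 ± 100 CPM and SMAD9 9.46 ± 17.5 and 15.2 ± 25.9 CPM, and neither passed. The ubiquitin ligases that turn over SMADs and receptors went opposite ways, with SMURF2 at 79.1 ± 99.3 CPM in EC and 30.5 ± 60.4 in TB, and SMURF1 at 7.72 ± 22.4 and 20.4 ± 56.3. SKIL, a co-repressor of SMADs, was 2.60-fold higher in EC.

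Other ligands and targets were divided as well. The ligand GDF7 averaged 22.3 ± 114 CPM in EC and 3.26 ± 14.6 in TB, and GDF6 0.72 ± 1.11 and 10.2 ± 36.8. GDF7 was detected in 14 EC and 10 TB, and with such an SD a single EC must have carried most of its mean. The summed further ligands reached 712 CPM in the highest EC, where the median was 15.1. Of 9 further target genes compared, 5 were higher in TB, namely ID4 (4.95 ± 11.7 CPM in EC and 20.998 ± 36.1 in TB), MSX2 (0.21 ± 0.59 and 39.1 ± 56.7), DLX5 (0.013 ± 0.081 and 10.1 ± 34.4), HAND1 (0.73 ± 1.01 and 219 ± 122) and TBX3 (12.6 ± 26.5 and 34.997 ± 45.01). HAND1 is also among the trophoblast markers. MSX1 was the only one higher in EC, at 29.4 ± 43.3 against 1.61 ± 4.06 CPM. ID3 and ID4 thus lay on opposite sides, and MSX1 and MSX2 did too. Of the E proteins that ID proteins bind, TCF4 was 2.23-fold higher in EC (154 ± 195 against 69.3 ± 86.1 CPM), while TCF3 and TCF12 were higher in neither.

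**Figure D3:**
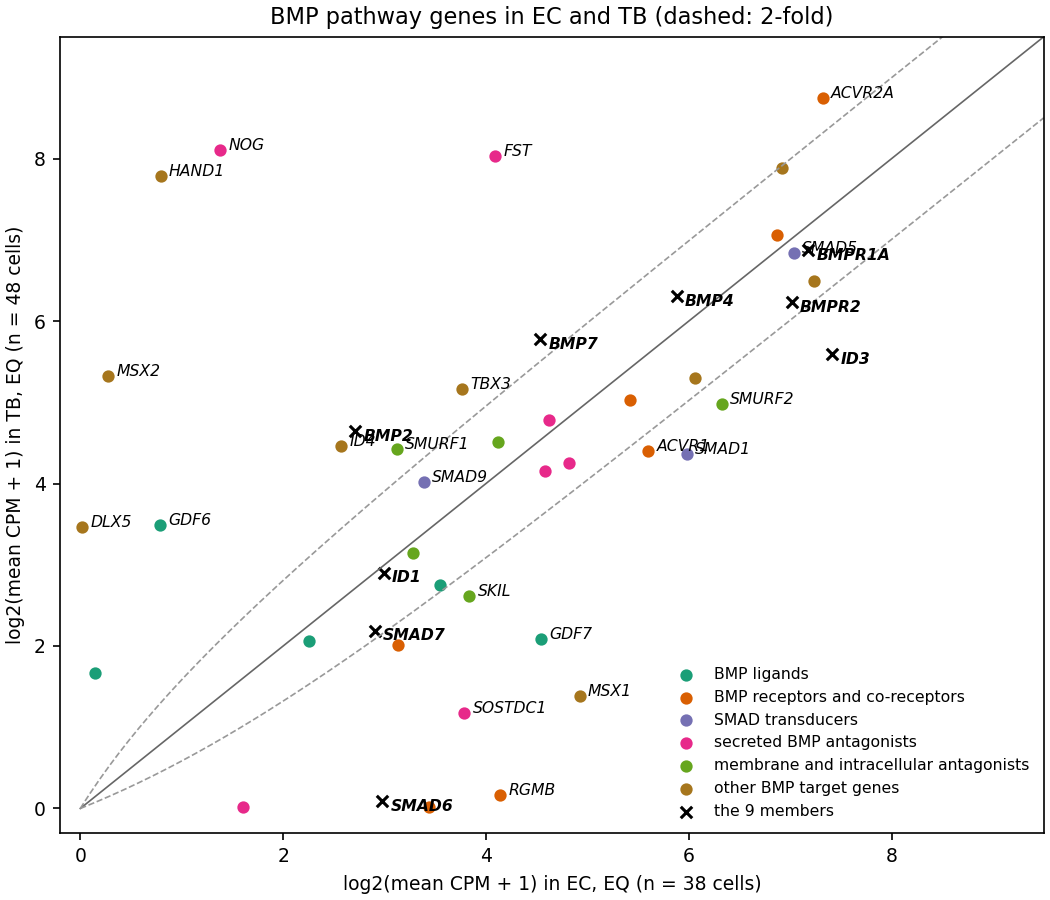
Mean level of 36 further BMP pathway genes (dots, coloured by class) and of the 9 genes described here (crosses) in EC and in TB of EQ, each axis as log2(mean CPM + 1), with the solid line at equal levels and dashed lines at 2-fold. NOG, HAND1, FST and MSX2 lie farthest towards TB among the named genes, and RGMB and SMAD6 lie near 0 in TB.

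Because EQ-75% repeated the library preparation from the same cDNA, it gives the error of library preparation and sequencing for each gene within a cell, over 37 EC and 47 TB that passed in both experiments. Noise from capture, reverse transcription and cDNA amplification is common to both libraries of a cell and stays in the spread between cells. For BMP4 the SD between cells on the log2(CPM + 1) scale was 3.14 in EC and the SD of a single measurement between preparations was 0.44, and for ID3 the values were 1.89 and 0.33. For BMP2 in TB they were 2.51 and 0.28. The same 15 EC held BMP4 at 10 CPM or more in both experiments, and 26 TB did so in both out of 30 in EQ and 27 in EQ-75%. The 8 TB high in BMP2 were also the same in both.

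Some low genes repeated less well, though not all. In EC the SD between preparations was 0.39 for both ID1 and SMAD7, beside 0.40 for BMP7, which was detected in every cell. In TB the largest was that of ID3, at 0.53. SMAD6 in EC had the largest SD between preparations of the 9 genes, 0.66 against an SD between cells of 1.66, with 5 cells at 10 CPM or more in EQ but 1 in EQ-75%. BMP2 had the lowest rank correlation between the same EC in both preparations, 0.54 against 0.76 for SMAD6. It was detected in 8 EC in EQ and 6 in EQ-75% with 4 in common, and SMAD6 in 25 and 21 with 19 in common.

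The mean level within cells shifted a little in the repeat. The median over the 9 genes of the mean log2(CPM + 1) change from EQ to EQ-75% was -0.16 in EC and -0.07 in TB, beside medians of -0.12 and -0.07 over all genes. ID3 fell by 0.46 ± 0.46 in EC, being lower in 33 of 37 cells, and by 0.30 ± 0.75 in TB, lower in 28 of 47. BMP7 fell by 0.33 ± 0.39 in TB, lower in 43 of 47 cells, and by 0.03 ± 0.57 in EC. BMPR2 went the other way, by 0.10 ± 0.56 in EC and 0.11 ± 0.51 in TB, with 24 of 37 and 33 of 47 cells higher. In EQ-Vary, which differed from EQ in the pooled volumes, ID3 moved by 0.03 ± 0.35 in EC and BMP7 by -0.03 ± 0.39 in TB. When each pair of libraries was subsampled to an equal number of counts, the median change over the 9 genes was -0.17 in EC and -0.09 in TB. With a pseudocount of 10 in place of 1 it was -0.06 in EC and -0.02 in TB. The cause of the shift was not tested.

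**Figure D4:**
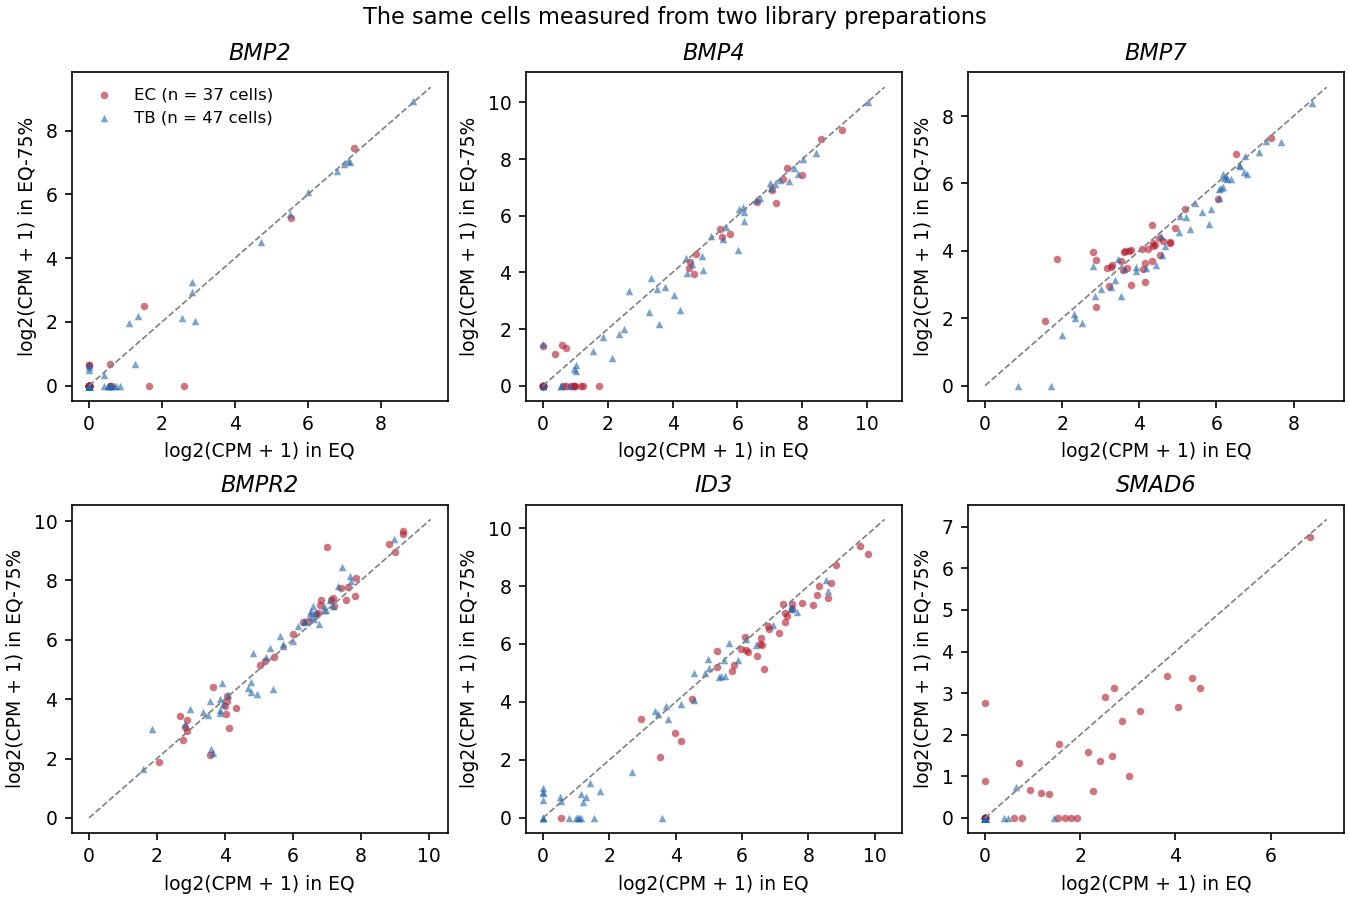
The same cells in EQ (horizontal axis) and in EQ-75% (vertical axis), both as log2(CPM + 1), for 6 genes, with EC as circles (37 cells), TB as triangles (47 cells) and the dashed line at equality. BMP2, BMP4 and BMPR2 keep their high cells along the line, ID3 lies slightly below it in EC, and SMAD6 scatters most.

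Between cells of the same type the genes varied largely apart, as they did from genes at large. Spearman correlations of log2(CPM + 1) over the 36 pairs had a median of 0.11 in EC (38 cells) and 0.03 in TB (48 cells) of EQ. Each gene was also correlated with all genes averaging 10 CPM or more. The medians of these correlations ran from -0.003 (SMAD6) to 0.08 (BMP7) in EC of EQ. In TB of EQ they ran from -0.01 (ID1) to 0.04 (BMP7). The median over the pairs was thus slightly above this range in EC and within it in TB. No separate cultures are named for the cells of a type, which share a lane and differ in depth, and the correlations are given as descriptions. In EC, 2 pairs were at 0.3 or more in all 3 experiments. For ID3 with SMAD6 the value was 0.48 in EQ, and it was 0.30 when volumes were varied (EQ-Vary) and 0.36 in the repeat (EQ-75%). In EQ it was higher than the correlation of ID3 with 99.8% of the genes that averaged 10 CPM or more, a share of 95.1% in EQ-Vary and 98.6% in EQ-75%. Total count correlated with SMAD6 at 0.36 and with ID3 at 0.16 in EC, and the partial correlation of the pair given the total was 0.45. BMP7 with SMAD7 gave 0.42, 0.44 and 0.34, with only 4 EC holding both at 10 CPM. These values were higher than for 94.9%, 95.5% and 91.8% of the genes that averaged 10 CPM or more. The correlation of BMP7 with the summed mesenchymal markers was 0.46 in the same EC of EQ and 0.27 in EQ-75%. In TB it had the opposite sign, at -0.36 in EQ and -0.35 in EQ-75%. The summed markers had a median of 13.7 CPM in EC and 3352 CPM in TB of EQ. In TB no pair reached 0.3 in all 3 experiments.

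ID1 with ID3, the pair of targets, gave 0.32, 0.21 and 0.29 in EC and 0.24, 0.20 and 0.25 in TB, in the order EQ, EQ-Vary and EQ-75%. In the same order these were higher than for 96.7%, 85.3% and 93.4% of genes averaging 10 CPM or more in EC. The shares in TB were 95.1%, 89.8% and 94.9%. The receptors BMPR1A and BMPR2 gave -0.06 in EC and 0.03 in TB. BMP4 with ID3 gave 0.30 in EC and 0.10 in TB. The largest value in TB, -0.41 for BMPR1A with ID1, was -0.02 in EQ-Vary and -0.22 in EQ-75%. In TB, ID3 correlated with the summed immediate early genes at -0.48 in EQ and -0.35 in EQ-75%. The EQ value was the largest of those of ID3 with 10 summed lists and depth measures. The part of these genes in the spread of ID3 was not tested.

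**Figure D5:**
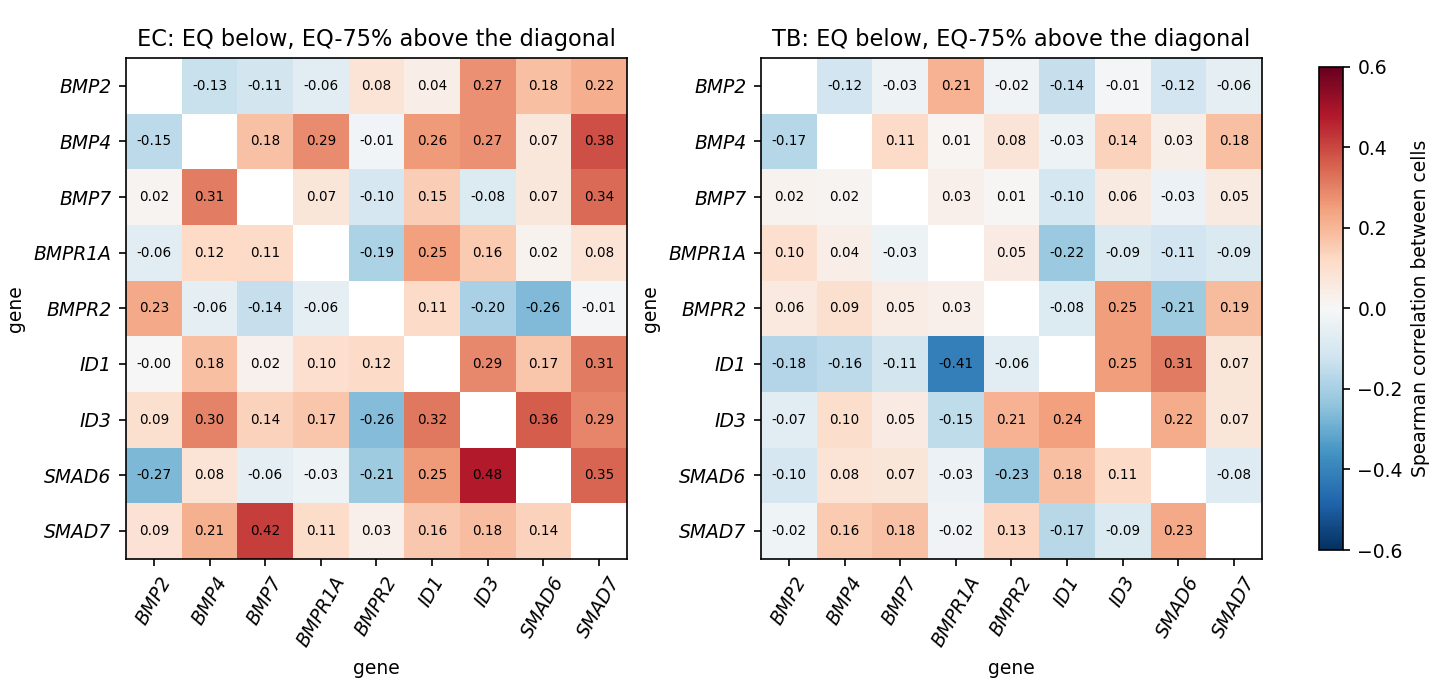
Spearman correlations of log2(CPM + 1) between cells for all pairs of the 9 genes in EC (left) and TB (right), with EQ below and EQ-75% above the diagonal and colour from -0.6 to 0.6. Most pairs lie near 0, and ID3 with SMAD6 and BMP7 with SMAD7 are at 0.3 or more on both sides of the diagonal in EC.

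The genes most like the ID targets were ranked by their correlation with the summed CPM of ID1 and ID3. In EC, over 38 cells and 8229 genes averaging 10 CPM or more, they were CALM3 (0.57), GAR1 (0.56), CSRP1 (0.54), MED23 (0.54) and ZNF664 (0.53). CSRP1 and MED23 kept 0.54 or more in the other 2 experiments. In TB, over 48 cells and 8609 genes, they were FIP1L1 (0.54), UBAC2 (0.52), LOXL2 (0.50), TMEM38B (0.50) and SH3BP5 (0.50). For BMP4 the nearest were BTBD8 (0.63), EPOR (0.59) and PROS1 (0.56) in EC, and PRPS1 (0.56), EIF2D (0.52) and SLC3A2 (0.50) in TB. BTBD8 dropped to 0.34 in EQ-Vary and EIF2D to 0.22 in EQ-75%.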

How the data were processed

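Single H1 cells were captured on the Fluidigm C1, and full-length cDNA was made with SMARTer chemistry, which carries no molecular identifiers, so reads are not independent molecules. Per the labels and the study's methods, the authors aligned paired-end reads, trimmed to 51 bases, with Bowtie 1.2.3 (2 mismatches allowed) and deposited expected counts per gene from RSEM 1.2.31, on GRCh38. The submitters' processing notes also name CASAVA 1.8.2. Expected counts need not be whole, since reads that match several transcripts are divided. Of the values above 0 in EQ, 15.4% (SMAD7) to 100% (BMPR1A, BMPR2) were not whole within 0.005. GENCODE 44 (GRCh38) gave the coordinates and the length of the canonical transcript, and all 9 genes matched. The annotation places a lncRNA on the strand opposite BMP4 and another protein-coding gene on the same strand over BMPR2. As no source used here says that strand was kept in the counting, reads of BMP4 and its opposite neighbour cannot be told apart.

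Expected counts were rounded. Libraries were kept when the log10 total was at least 5.4 and the 50 most abundant genes held at most 31% of counts, the limits of the study. CPM was taken over all 17492 genes. A gene with no count in a cell type was set to a floor of 3 counts over the summed total for ratios, and no ratio was formed where both types were at or below it. Poisson, binomial (Clopper-Pearson) and ratio intervals are exact, at 95%. Thinning drew 1000000 counts per library without replacement. The pseudocount was 1. Python 3.11.15, numpy 2.4.6, pandas 2.3.3 and scipy 1.17.1 were used, and size factors for an alternative came from scran 1.30.0 in R 4.3.3. The ratio and correlation steps were tested on simulated data. Same-numbered cells come from the same cDNA, and their log profiles, as deviations from the mean of the type, correlated at 0.845 or more between experiments for every cell.

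The genes and lists were chosen with earlier results of these data known. Beyond the 9 genes, the text names pathway genes past 2-fold in EQ with 10 CPM or more in a type, the SMADs that carry the signal, the 3 most abundant genes of a marker list, and the genes nearest in correlation. ID2 and SMAD4 were not analysed here. Sequences are from RefSeq (GRCh38.p14).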

Additional observations from a re-analysis of the deposited data

How the results depend on the processing

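The 4 genes past 2-fold were ID3 and SMAD6 in EC and BMP2 and BMP7 in TB. They passed it in all cells with no limit of the study, with scran size factors, in EQ-Vary and in EQ-75%. They also did with counts not rounded, with no filter on low values, and without the highest cell of each gene. This last setting was chosen after seeing the data. No gene of the 9 changed the sign of its log2 ratio under these settings. On the scale of mean log2(CPM + 1), BMP2 (-0.99) and BMP7 (-0.89) missed the limit and BMP4 (-1.44) passed it, leaving 1 gene higher in TB, while the genes higher in EC numbered 1221 among all genes in place of 2372 and 6 in place of 11 in the pathway list. Without the highest cells 7 of the pathway list were higher in EC. SMAD7 passed in EC with scran size factors (1.0005) and without the highest cells (1.04). Of the 9 genes, 4 were detected in every EC and 3 in every TB. Among all genes with a mean of 1 CPM or more, 30.3% were detected in every EC and 28.5% in every TB. The counts of the 9 genes became 2 and 0 with the cells outside the limits of the study. They became 2 and 1 when 5 counts were asked for. The cause of these changes was not tested. With no replicate block, that is comparing the means of the experiments instead of the same cells, the median change from EQ to EQ-75% was -0.16 in EC and -0.05 in TB, against -0.16 and -0.07 within cells. When all cells entered it was -0.05 in EC and 0.02 in TB, so its sign in TB is not firm. The correlation of ID1 with ID3 lay between 0.20 and 0.37 in EC and between 0.20 and 0.35 in TB over all alternatives. Depth limits what can be said of ID1, BMP2, SMAD6 and SMAD7, which in 1 or both cell types had no count in most cells.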

Other observations

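Further gene lists were measured in the same cells. Of 5 pluripotency genes with a row, POU5F1 averaged 28.5 ± 63.0 CPM in EC and 13.4 ± 20.5 in TB, NANOG 83.2 ± 239 and 33.99 ± 29.8, both higher in EC, DPPA4 was higher in TB (33.6 ± 51.2 and 95.5 ± 104), LIN28A was level (279 ± 180 and 287 ± 189), and SOX2 had no count in EC. Primitive streak genes were close to absent, with 4 of 5 at 0 counts in both cell types. Of 8 S-phase genes 5 were higher in TB, and of 10 G2/M genes 3 were higher in EC, where 26.2% of all genes were higher in TB and 19.2% higher in EC. Within EC of EQ, BMPR2 correlated with the summed S-phase genes at 0.36 and BMP4 at 0.31, and at 0.32 and 0.27 in EQ-75%. Within TB of EQ, SMAD7 did so at 0.34 and ID3 at 0.24, but at 0.09 and 0.12 in EQ-75%. These pairs were named for the largest positive values among the 9 genes in EQ. Correlations of the 9 genes with the summed endothelial markers in EC lay between -0.18 and 0.14.

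The 10 EQ cells outside the limits of the study entered only the alternatives that took all cells. The 7 EC among them, with totals of 11404 to 336843 counts, held 66 counts of ID3 (detected in 7), 20 of BMP4 (5) and 5 of SMAD6 (2). The 3 TB, with totals of 8572 to 45803 counts, held 1 count of ID3 and none of SMAD6, ID1 or SMAD7.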
